A study of Homo sapiens with 2 samples.

Results

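The genes described here are the nuclear genes for proteins of the mitochondrial ribosome that carry the symbols MRPL (large subunit) or MRPS (small subunit) followed by a number. Of the 54261 genes in the count table, 77 had such a symbol, 48 with MRPL and 29 with MRPS, and rows named as pseudogenes of these genes were left out. RKO cells, a human colorectal carcinoma line, received either si-NC, a negative control siRNA, or si-SRSF2, which targets the splicing factor SRSF2. Poly(A) RNA was sequenced from 1 library per group, so no difference below had a replicate check, no test between the groups was run, and differences between transfections are unknown. The comparison asks which mitoribosomal protein mRNAs stood higher or lower once SRSF2 was depleted.

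The mitochondrial ribosome translates the few mRNAs made from mitochondrial DNA, which encode core subunits of the respiratory chain and of ATP synthase. Its ribosomal RNAs come from mitochondrial DNA, whereas its proteins are encoded in the nucleus, translated in the cytosol and imported. Many of the proteins are kin of bacterial ribosomal proteins, and others are found only in mitochondria. SRSF2 is a serine/arginine-rich protein that binds exonic RNA and influences which exons are retained in the mature mRNA.

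The si-NC library held 19931360 counts and the si-SRSF2 library 14512802. SRSF2 itself had 1964 counts with si-NC and 713 with si-SRSF2, or 98.5 and 49.1 CPM (counts relative to the scaled library total), a log2 ratio of -0.997 with a 95% counting interval of -1.13 to -0.88. Markers of other cell types were near 0, as none of 6 fibroblast, 5 leukocyte and 3 endothelial genes reached 1 CPM. Of 10 epithelial markers, 4 (EPCAM, KRT8, KRT18 and CDX2) reached 1 CPM, while the intestinal markers KRT20, CDX1 and LGALS4 had 0 counts in both libraries. All 10 together had a summed level of 79.4 CPM with si-NC and 97.0 CPM with si-SRSF2. Most of that difference lay in KRT8 (27.4 and 42.6 CPM), and EPCAM (8.98 and 10.1), KRT18 (31.7 and 32.9) and CDX2 (10.6 and 10.9) differed less. In bulk RNA, fewer cells holding a transcript and less of it per cell cannot be told apart.

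The only SRSF2 duplex the study lists is shown so that exact matches to member transcripts could be searched. The label of the si-SRSF2 library, KD2, does not say which duplex was used. The 19 paired bases of its sense strand lie from base 769 of the canonical SRSF2 transcript. Capitals mark the bases, 12 to 18 of the strand, that a 3′ UTR would share with it to pair with the seed of the opposite strand.
si-SRSF2: uccaaauccagGUCGCGAutt
None of the 77 canonical member transcripts held the 19-base target. The seed match GTCGCGA was found in 0 of the 74 member 3′ UTRs examined and in 27 of 10429 3′ UTRs of tested genes (0.259%). Partial matches, other transcripts and the seed of the printed strand were not searched.

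Counts were scaled to CPM with TMM factors, which adjust for differences in library composition. Log2 ratios give si-SRSF2 over si-NC after adding 0.5 CPM to both values, which understates the change of low genes. Only genes whose mean reached 1 CPM were compared, which kept 12620 of all genes and 74 of the 77 members. Intervals, given in brackets or in words, are 95% Clopper-Pearson intervals of the ratio of counts and cover counting error only.

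MRPL1 stood apart from the other members and was higher after SRSF2 depletion. Its product belongs to the L1 stalk of the large subunit, a mobile arm beside the site where spent tRNAs leave the ribosome. MRPL1 (ENSG00000169288.18, chr4:77862830-77952785, plus strand, GRCh38) had 191 counts with si-NC and 310 with si-SRSF2, although the latter library was the shallower of the pair. Its level was 9.58 CPM with si-NC and 21.4 CPM with si-SRSF2, a log2 ratio of 1.12 with an interval of 0.89 to 1.42. It was the only member changed at least 2-fold, which is 1.35% of the 74, beside 1.35% of all genes tested. Among the 8893 genes within the members' range of mean CPM 40 (0.45%) were past this limit.

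Across the members the shift was small and mostly upward. The median log2 ratio was 0.067, with quartiles of -0.049 and 0.19, against a median of -0.025 and quartiles of -0.19 and 0.15 over all genes tested. Of the 74 members, 51 (68.9%) had a log2 ratio above 0, against 46.2% of all genes tested. A log2 ratio of 0.32 or more in either direction was used as the limit for a moderate difference. Past it on the upper side were 10 members (13.5%), against 11.8% of all genes tested. Past it on the lower side was a single member, MRPS16 (1.35%), against 13.3% of all genes tested. The counting interval lay wholly above 0 for 24 members (32.4%; 21.0% of all genes tested) and wholly below 0 for 9 (12.2%; 26.7% of all genes tested). The members' shares thus lay above those of all genes for ratios above 0, below them for lower ratios, and close to them past the moderate limit on the upper side.

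The members' mean level set a narrower comparison. Among the same 8893 genes, the median log2 ratio was -0.035, 8.41% were past the moderate limit on the upper side and 12% on the lower side. Summed over all 77 members, 73547 counts (0.369% of the library) were found with si-NC and 55806 (0.385%) with si-SRSF2. The summed level was 3690 CPM with si-NC and 3845 CPM with si-SRSF2, a log2 ratio of 0.059 (0.043 to 0.075). As a class, these mRNAs took up nearly the same share of both libraries.

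**Figure D1:**
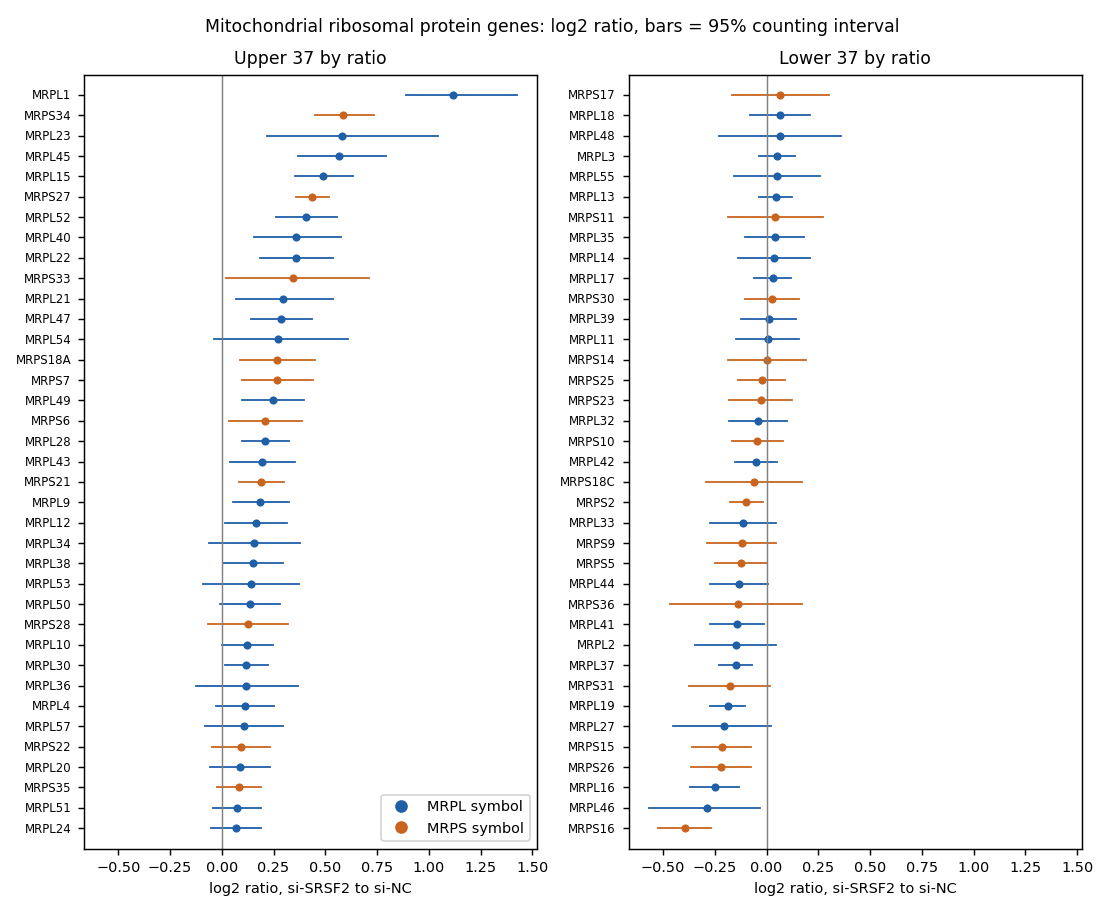
Log2 ratio, si-SRSF2 over si-NC (x axis) for each of the 74 members past the filter, sorted by ratio in 2 panels of 37, with bars for the 95% counting interval and colour for MRPL or MRPS symbols. MRPL1 lies at 1.12, the next member, MRPS34, at 0.59 and the lowest, MRPS16, at -0.39.

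Most of the large subunit lay slightly above 0. Of the 48 genes with MRPL symbols, 37 (77.1%, against 46.2% of all genes tested) had a log2 ratio above 0 and 11 below, with a median of 0.098. Past the moderate limit, 7 were higher (14.6%, near the 11.8% of all genes tested) and none was lower (13.3% of all genes tested). Of the 26 MRPS genes past the filter, 14 were above 0 (53.8%) and 12 below, with a median of 0.013, and past that limit 3 were higher (11.5%, near the share of all genes) and 1 was lower (3.85%). The difference between the subunits was not tested, and summed counts gave 0.061 (0.042 to 0.081) for MRPL and 0.055 (0.028 to 0.082) for MRPS genes, intervals that overlapped.

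By ancestry, the 30 large-subunit proteins with a bacterial counterpart had a median of 0.079, with 24 above 0 (80.0%), 4 past the moderate limit upward (13.3%) and none downward. The shares over all genes tested were 46.2%, 11.8% and 13.3%, so the upward share was near that of all genes. Besides MRPL1, this group held MRPL23 and MRPL15, which were among the 8 highest ratios. MRPL23, kin of a bacterial protein at the exit of the peptide tunnel, had 95 counts with si-NC and 107 with si-SRSF2, or 4.77 and 7.37 CPM. Its log2 ratio of 0.58 had a wide interval, 0.22 to 1.04, because it had the fewest counts of any member past the filter. MRPL15 had 824 and 846 counts, or 41.3 and 58.3 CPM, and a log2 ratio of 0.49 (0.36 to 0.64). Both intervals lay above 0, and MRPL15 was measured far more precisely.

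On the lower side of the same group were MRPL16, MRPL27 and MRPL19. MRPL16, whose bacterial kin sits near the peptidyl transferase centre, had 1497 counts with si-NC and 916 with si-SRSF2, 75.1 and 63.1 CPM, and a log2 ratio of -0.25 (-0.37 to -0.13). MRPL19 had 2962 and 1893 counts, 149 and 130 CPM, and a log2 ratio of -0.19 (-0.27 to -0.10). MRPL27 had 390 and 245 counts, 19.6 and 16.9 CPM, and -0.21 (-0.45 to 0.021), an interval that spanned 0. All these differences were short of the moderate limit.

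The 21 large-subunit proteins listed as particular to mitochondria include MRPS30, MRPS18A and ICT1 despite their symbols. MRPS18A shares its symbol family with MRPS18B, of a family related to bacterial S18, so the grouping by ancestry is approximate. The list had the highest median of the subunit groups, 0.14, with 16 above 0 (76.2%, against 46.2% of all genes tested). Past the moderate limit were 4 upward (19%, against 11.8%) and none downward (13.3% of all genes tested). MRPL45, which helps to hold the ribosome at the inner membrane near the tunnel exit, had 357 counts with si-NC and 389 with si-SRSF2, 17.9 and 26.8 CPM, and a log2 ratio of 0.57 (0.37 to 0.79). Of the 31-base stretches of its transcript examined, 85.6% were also found on an alternate scaffold of GRCh38, where a copy can take reads away from the main locus. MRPL52 had 776 and 751 counts, 38.9 and 51.7 CPM, and a log2 ratio of 0.41 (0.26 to 0.56). MRPL40 had 388 and 364 counts, 19.5 and 25.1 CPM, and a log2 ratio of 0.36 (0.16 to 0.58). The lowest of the group was MRPL46, with 312 and 185 counts, 15.7 and 12.7 CPM, and a log2 ratio of -0.29 (-0.57 to -0.030).

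In the small subunit the groups by ancestry lay on either side of 0. The 14 tested proteins with a bacterial counterpart had a median of -0.022, 7 of them above 0 (50%, against 46.2% of all genes tested), none past the moderate limit upward (11.8% of all genes tested) and 1 downward (7.14%, against 13.3%). MRPS16, the lower one, had 1394 counts with si-NC and 772 with si-SRSF2, 69.9 and 53.2 CPM, and a log2 ratio of -0.39 (-0.52 to -0.27). It shares 15.3% of its exonic bases with an antisense gene, DNAJC9-AS1, which had 37 and 11 counts. MRPS15 had 1054 and 661 counts, 52.9 and 45.5 CPM, and a log2 ratio of -0.21 (-0.36 to -0.074). MRPS7, the highest of the group, had 610 and 535 counts and a log2 ratio of 0.26 (0.10 to 0.44).

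The 9 tested small-subunit proteins listed as particular to mitochondria had a median of 0.082, with 5 above 0 (55.6%, against 46.2% of all genes tested). Past the moderate limit were 3 upward (33.3%, against 11.8%) and none downward (13.3% of all genes tested). MRPS34 had 781 counts with si-NC and 858 with si-SRSF2, 39.2 and 59.1 CPM, and a log2 ratio of 0.59 (0.45 to 0.73), the second highest of all members. EME2, on the opposite strand over 32.6% of the exonic bases of MRPS34, had 92 and 54 counts and a log2 ratio of -0.28 (-0.82 to 0.19), an interval that spanned 0. MRPS27, a protein with pentatricopeptide repeats of the kind that bind RNA, had 2656 and 2619 counts, 133 and 180 CPM, and a log2 ratio of 0.44 (0.36 to 0.52). It was the most abundant member by CPM in the si-SRSF2 library.

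The other small-subunit proteins of this kind that the ratios single out were measured less precisely or changed less. MRPS33 had 147 and 138 counts, 7.38 and 9.51 CPM, and a log2 ratio of 0.35 (0.021 to 0.71). MRPS26 had 1005 and 628 counts, 50.4 and 43.3 CPM, and a log2 ratio of -0.22 (-0.37 to -0.076). MRPS31 had 544 and 350 counts, 27.3 and 24.1 CPM, and -0.18 (-0.38 to 0.018), and its reads can be shared with counted pseudogene copies. MRPS33 was the member just inside the moderate limit on the upper side, and MRPL21, at 0.29 (0.068 to 0.54) with 323 and 290 counts, was just outside it. On the lower side only MRPS16 was inside the limit, and MRPL46 was next.

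**Figure D2:**
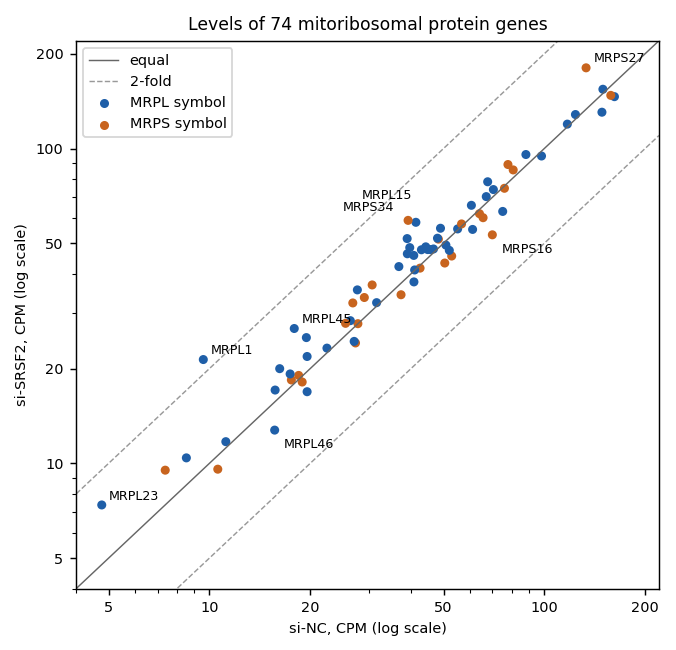
Level of the 74 members in si-NC (x axis) against si-SRSF2 (y axis), in CPM on log scales, 1 point per gene, with the line of equal levels and dashed lines at 2-fold. MRPL1 (9.58 and 21.4 CPM) lies beyond the 2-fold line and every other point lies between the dashed lines.

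The members covered a wide range of levels in both libraries. Pearson's r of the log2 CPM values between the libraries was 0.975 across the 74 members, with nothing added to the CPM. Across all genes tested it was 0.987 after adding 0.5 CPM, so these values are not directly comparable. Genes are not independent replicates. Compared per kilobase of canonical transcript, levels with si-NC ran from 1.75 CPM per kb for MRPS33 to 119 CPM per kb for MRPL13, a 67.8-fold range around a median of 29.8. With si-SRSF2 they ran from 2.26 to 122 CPM per kb for the same genes, a 54.2-fold range around a median of 32.3. Per kilobase of coding sequence the range was 30.4-fold with si-NC, from 9.83 for MRPL1 to 298 for MRPS21, and 22.4-fold with si-SRSF2, from 15.2 for MRPL46 to 341 for MRPS21. The mRNAs for parts of the same ribosome thus differed widely in level.

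MRPL13, MRPS2 and MRPL37 had the 3 highest levels per kilobase in both libraries. MRPL13 had 2982 counts with si-NC and 2239 with si-SRSF2, MRPS2 had 3148 and 2141, and MRPL37 had 3228 and 2121. Their log2 ratios were 0.044 (-0.036 to 0.12), -0.098 (-0.18 to -0.019) and -0.15 (-0.23 to -0.069). At the bottom, above MRPS33, stood MRPS11 with 368 and 276 counts (log2 ratio 0.041, interval -0.19 to 0.27) and MRPL42 with 1955 and 1374 counts (log2 ratio -0.051, interval -0.15 to 0.049). These places depend on long untranslated stretches of the canonical transcripts. Per coding kilobase with si-NC, MRPS33 moved from rank 1 to rank 8 from the bottom, MRPS11 from 2 to 13 and MRPL42, with 426 coding bases in 15557 bp, from 3 to 72.

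Per kilobase of coding sequence MRPL1 had the lowest level of the 74 members with si-NC, against a median of 69.7 CPM per coding kb. With si-SRSF2 it reached 21.9 CPM per coding kb, against a median of 71.9, and was the fifth lowest. Per kilobase of transcript it moved from rank 8 to rank 21 from the bottom. With si-SRSF2 its 18.2 CPM per kb of transcript lay just above the members' lower quartile of 17.1, while per coding kb it lay below the lower quartile of 46.8.

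MRPL1 has 9 exons and 325 codons in its canonical transcript, and GENCODE lists 6 transcripts. The study examined the splicing of an internal exon of MRPL1, and its junction reads were not analysed here, since the gene counts do not separate exons. That exon lies at chr4:77906946-77907210 (GRCh38, plus strand) and is annotated in 1 of the 6 transcripts, as exon 5 of 6. It lies in the intron between canonical exons 6 and 7, is preceded by AG and followed by GT on the genome, and is 265 bases long, which is not a multiple of 3. Its sequence is shown because the stop codon it carries, in capitals, is read in frame when the exon is placed between canonical exons 6 and 7.
MRPL1 internal exon: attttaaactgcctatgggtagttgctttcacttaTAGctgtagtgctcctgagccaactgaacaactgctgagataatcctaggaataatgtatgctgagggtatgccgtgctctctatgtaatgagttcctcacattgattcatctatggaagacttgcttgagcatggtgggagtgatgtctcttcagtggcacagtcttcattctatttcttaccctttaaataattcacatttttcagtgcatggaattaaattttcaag
In that arrangement 235 codons precede the TAG, which starts at base 36 of the exon, and 3 canonical exons follow downstream. The gene count of MRPL1 sums reads from transcripts with and without the exon.

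**Figure D3:**
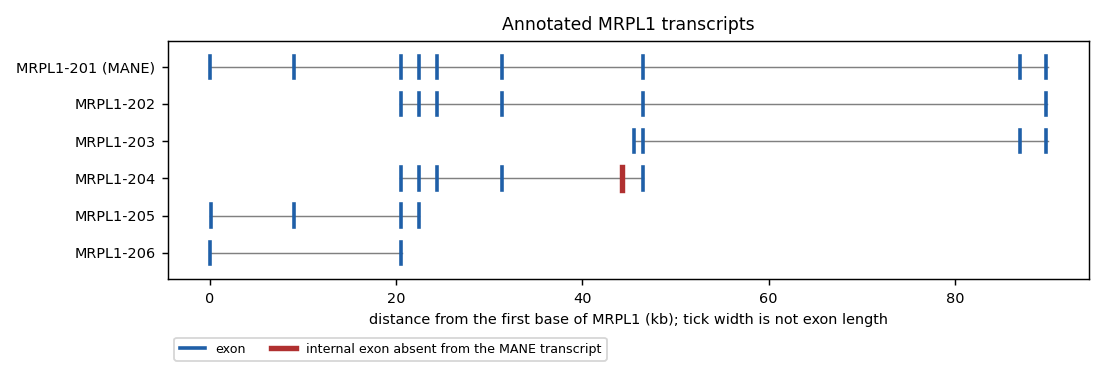
Exons of the 6 annotated MRPL1 transcripts by distance from the first base of the gene in kb (x axis), 1 row per transcript, with tick width not to scale. The internal exon, in red, appears in 1 transcript and lies between exons 6 and 7 of the canonical transcript in the top row.

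Transcripts annotated as targets of nonsense-mediated decay, in which an early stop codon leads to degradation, were listed for 25 of the 74 members and for 49 none was listed. The median log2 ratio was 0.063 with such a transcript and 0.068 without, and 3 of the 25 and 7 of the 49 were past the moderate limit upward, both near the 11.8% of all genes tested. MRPL1 was among those without one. Its transcript with the internal exon is annotated with no coding sequence defined, so the annotation does not say whether that transcript is such a target.

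Promoters were compared because nuclear genes for mitochondrial proteins are known to share binding sites for NRF1, for ETS factors such as GABPA and for YY1. RefSeq windows of 300 bases, from 250 before to 50 after the start (GRCh38.p14), were matched for 68 members and searched on both strands. The ETS letters CCGGAAG were found in 28 member windows (41.2%), against 10.7% of all 27305 windows and 20.4% of those of tested genes. The YY1 letters AAGATGGC were in 20 (29.4%), against 3.03% and 5.9%. The NRF1 letters GCATGCGC were in 6 (8.82%), against 3.27% and 5.92%. Both backgrounds were exceeded for ETS, YY1 and NRF1, by less where only tested genes were the background.

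For the other elements the member share lay below that of tested genes, and for SP1 it lay above that of all windows. The SP1 letters GGGCGG were in 60.3% of member windows, against 44.6% of all and 71.6% of those of tested genes. CCAAT, the NF-Y letters, were in 29.4%, against 35.7% and 37.0%, and TATAAA was in 2.94%, against 12% and 4.86%. Among tested members, the median log2 ratio was 0.094 with the ETS letters (27 members) and 0.045 without (38). For YY1 the medians were 0.14 (17 members) and 0.049 (48). The order was the opposite for NRF1 (0.029 with, 5 members, and 0.067 without, 60) and NF-Y (0.025, 19 members, and 0.077, 46). It was also the opposite for TATAAA (0.029, 2 members, and 0.065, 63). The medians with NRF1 letters and with TATAAA thus rest on very few members. For SP1 the medians were 0.068 (39 members) and 0.056 (26). The differences between these medians were not tested.

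The 250 bases before the start are shown for the member with the highest ratio and for a higher and a lower member that carry the ETS letters. Capitals mark ETS (CCGGAAG or CTTCCGG) and SP1 (GGGCGG or CCGCCC) letters.
MRPL1, chr4:77862580-77862829, plus strand: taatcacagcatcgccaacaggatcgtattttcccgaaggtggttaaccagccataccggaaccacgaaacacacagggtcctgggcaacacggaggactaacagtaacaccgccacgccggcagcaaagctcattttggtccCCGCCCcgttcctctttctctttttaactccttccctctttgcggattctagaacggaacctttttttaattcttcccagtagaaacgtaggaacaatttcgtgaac
MRPL40, chr22:19432295-19432544, plus strand: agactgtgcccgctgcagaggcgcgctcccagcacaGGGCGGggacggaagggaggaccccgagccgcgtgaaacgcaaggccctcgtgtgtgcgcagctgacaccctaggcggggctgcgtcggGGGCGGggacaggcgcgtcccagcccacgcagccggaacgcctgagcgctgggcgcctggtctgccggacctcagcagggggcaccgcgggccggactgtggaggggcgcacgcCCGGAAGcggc
MRPS26, chr20:3045802-3046051, plus strand: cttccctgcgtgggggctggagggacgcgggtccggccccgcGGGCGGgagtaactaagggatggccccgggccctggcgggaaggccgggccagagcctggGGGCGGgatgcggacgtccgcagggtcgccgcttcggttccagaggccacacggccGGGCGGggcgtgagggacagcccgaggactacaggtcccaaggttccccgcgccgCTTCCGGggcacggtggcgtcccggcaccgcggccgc
The MRPL1 window held SP1 letters and none of the ETS, YY1 or NRF1 letters. MRPL40 (log2 ratio 0.36) and MRPS26 (-0.22) were chosen as members with ETS letters on opposite sides of 0, as examples only.

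Members mostly had short transcripts with few exons. Their median canonical transcript was 1288 bp with 585 coding bases and 5 exons, against 3249 bp, 1434 coding bases and 9 exons over all tested genes with a transcript, while GC content was alike (48.0% and 47.9%). Spearman's rho of the log2 ratio across the 74 members was -0.23 with mean CPM, -0.12 with transcript length and 0.14 with GC content, as a description with no test. Over all tested genes with a transcript the values were -0.0063, -0.12 and 0.029, so that for length was alike. A start site of another gene lay head to head within 1000 bp of 17 members, and for 14 both genes passed the filter, with a median log2 ratio of 0.051 for the partners against 0.11 for the members. MRPL46 and MRPS11 are partners of each other, so these were 13 distinct pairs, of which 8 had both genes on the same side of 0.

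The 3 members that failed the filter were MRPS12, MRPS18B and MRPS24, all of the small subunit. MRPS12, whose bacterial kin takes part in decoding, had 4 counts with si-NC and 1 with si-SRSF2. MRPS18B, of a family related to bacterial S18, and MRPS24, kin of bacterial S3, had 0 counts in both libraries, which allows up to 0.151 CPM with si-NC and 0.207 CPM with si-SRSF2. These limits hold for reads assigned to the listed symbol, not for the transcript itself. The methods name an Ensembl annotation, whereas many rows carry LOC names of the NCBI kind, so which gene models were counted is unclear. All the other members had at least 95 counts with si-NC.

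These loci differed in what the genome and annotation hold around them. Of the 31-base stretches of MRPS18B examined, 88.0% occurred on alternate scaffolds, and all 10 of its nearest protein-coding genes had fewer than 10 counts over the libraries. No stretch of MRPS12 or MRPS24 was found on an alternate scaffold. Of their 10 nearest genes, 5 for MRPS12 and 4 for MRPS24 had fewer than 10 counts. Near MRPS12, SARS2 (9 and 3 counts), NFKBIB (6 and 4) and SIRT2 (7 and 12) were also low. HNRNPL (477 and 406) and, with si-NC only, ECH1 (582 and 11) were not. For MRPS24, 90.9% of exonic bases lie within a read-through gene on the same strand, URGCP-MRPS24, which also had 0 counts. For the members past the filter a median of 3 of the 10 nearest genes had fewer than 10 counts, and the highest number was 9. The part of these features in the low counts was not tested. MRPL45 and MRPS36, which passed the filter, also had most of their stretches on such scaffolds. Whether the authors' alignment held these scaffolds is not given in the sources used here. MRPS36, now regarded as a subunit of the oxoglutarate dehydrogenase complex, had 91.1% of its stretches on alternate scaffolds, 211 and 139 counts and a log2 ratio of -0.14 (-0.46 to 0.17).

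The lists of the wider apparatus of mitochondrial translation had medians on either side of 0. A further list of mitoribosome proteins whose symbols fall outside the rule (DAP3, PTCD3, AURKAIP1, CHCHD1 and GADD45GIP1) had a median of -0.027, with 1 of 5 above 0 (46.2% of all genes tested) and none past the moderate limit. ICT1, also outside the rule but counted above with the large subunit, had 281 and 263 counts and a log2 ratio of 0.35 (0.11 to 0.61), past that limit. The 5 ran from -0.17 (-0.31 to -0.028) for AURKAIP1, with 1079 and 700 counts, to 0.021 (-0.15 to 0.19) for GADD45GIP1, with 663 and 490 counts. Translation factors and mRNA-handling proteins had a median of 0.11 over 15 genes, with 11 above 0 (73.3%, against 46.2% of all genes tested), 5 intervals wholly above 0 (33.3%, against 21.0%) and 2 wholly below (13.3%, against 26.7%), and 1 past the moderate limit each way (6.67%, against 11.8% upward and 13.3% downward). SLIRP, which stabilises mitochondrial mRNAs together with LRPPRC, had 509 and 545 counts and a log2 ratio of 0.55 (0.38 to 0.73), and MTIF2, the initiation factor, had 1677 and 974 counts and a ratio of -0.32 (-0.44 to -0.21).

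Assembly factors lay on both sides of 0. Over 21 tested genes the median was 0.029, with 3 past the moderate limit upward and 3 downward (14.3% each, near the 11.8% and 13.3% of all genes tested). TRUB2, a pseudouridine synthase, was the highest, with 930 and 920 counts and a log2 ratio of 0.44 (0.31 to 0.57). MPV17L2, an inner-membrane protein needed for ribosome biogenesis, was the lowest, with 194 and 84 counts and a log2 ratio of -0.70 (-1.14 to -0.37). The interval of MPV17L2 reached past 2-fold, but its point value did not.

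The mitochondrial tRNA synthetases, which charge tRNAs with amino acids, were listed together with the GatCAB amidotransferase (QRSL1, GATB and GATC), which completes the charging of the glutamine tRNA. The list had a median of -0.019 over 18 tested genes, with none past the moderate limit upward (11.8% of all genes tested) and 2 downward (11.1%, against 13.3%). NARS2, the asparagine enzyme, was the lowest, with 608 and 284 counts and a log2 ratio of -0.63 (-0.85 to -0.44). EARS2, the glutamate enzyme, was the highest, with 865 and 778 counts and a log2 ratio of 0.30 (0.16 to 0.45). The list thus lay around the median of all genes tested.

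The 13 mRNAs that the mitoribosome translates took 4.45% of counts with si-NC and 4.82% with si-SRSF2. Their median log2 ratio was 0.11, with 11 above 0 (84.6%, against 46.2% of all genes tested), 1 past the moderate limit upward (7.69%, against 11.8%) and none downward (13.3% of all genes tested). ATP8, an ATP synthase subunit, was the highest, with 1172 and 1111 counts and a log2 ratio of 0.38 (0.26 to 0.50), and ND6, a complex I subunit on the other strand of mitochondrial DNA, was the lowest, with 5366 and 3551 counts and a ratio of -0.14 (-0.20 to -0.077). The cytosolic ribosomal protein genes, given for comparison, had a median of 0.076 over 77 tested genes, with 56 above 0 (72.7%), 3 past the moderate limit upward (3.9%) and 4 downward (5.19%). They ran from -1.12 for RPL9 to 0.71 for RPL36A, genes of families with many near-identical copies that can share reads. The medians of the mitochondrial and the cytosolic list were thus close to each other.

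**Figure D4:**
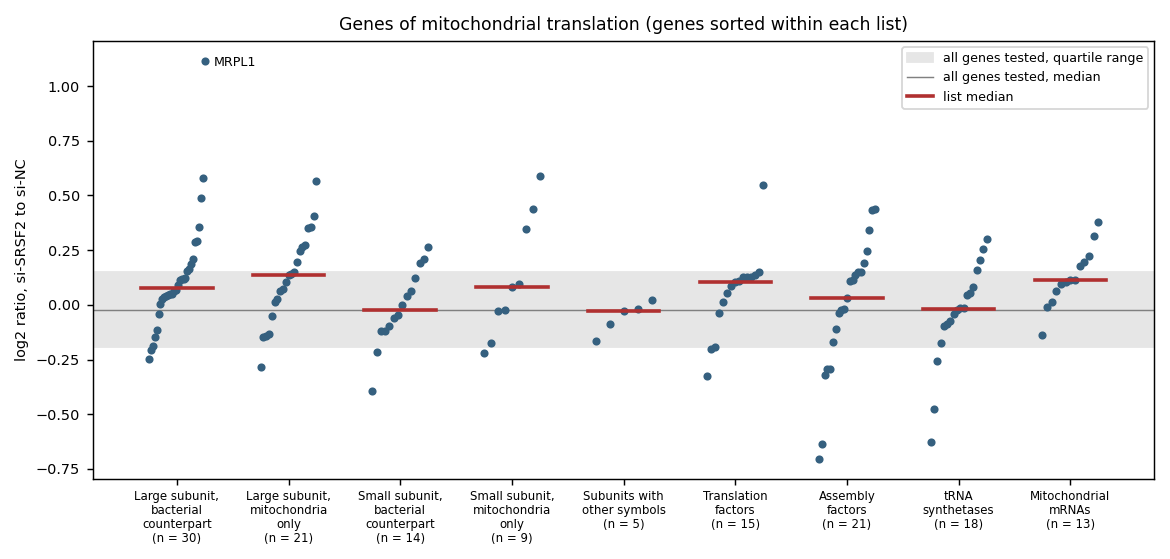
Log2 ratio, si-SRSF2 over si-NC (y axis) for every tested gene of each list (x axis), 1 point per gene, with red bars at list medians and grey for the median and quartiles of all genes tested. List medians run from -0.027 to 0.14, and MRPL1 at 1.12 is the highest point.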

How the data were processed

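RNA-seq was analysed from 2 libraries of RKO cells, grouped by their labels as si-NC and si-SRSF2. The authors deposited raw counts per gene symbol, made by alignment to GRCh38 with HISAT2 (version 2.0.4 in the submitters' processing notes) and counting with HTSeq. The strand mode of counting is not given in the sources used here, so overlapping genes are uncertain. Counts were scaled with edgeR 4.0.16 (TMM, R 4.3.3), and ratios used a pseudocount of 0.5 CPM and covered genes whose mean reached 1 CPM. Intervals came from SciPy 1.17.1 and cover counting error only. With 1 library per group no test was run. Exons were read from GENCODE 44. The calculations were tested on simulated data.

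Named genes were SRSF2, MRPL1, members changed at least 2-fold, the 8 highest and 8 lowest ratios among members whose mean reached 5 CPM, the 3 highest and 3 lowest levels per kb, members failing the filter, and the extremes of each pathway list. MRPL21, MRPS36 and the overlapping genes were named after their values were seen. Members and lists were chosen with earlier results of these data known. Alternatives were DESeq2 1.42.0 size factors, other scalings, pseudocounts and filters. The mitochondrial rRNAs were not analysed here.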

Additional observations from a re-analysis of the deposited data

How the results depend on the processing

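With 1 library per group, leaving out a library was not possible, and depth limits only the counting error. No paired analysis was possible because there was a single library per group. Over 8 alternatives of scaling, pseudocount and filter, the log2 ratio of MRPL1 ran from 1.01 (pseudocount 2 CPM) to 1.15 (pseudocount 0.1 CPM). With upper-quartile factors the median log2 ratio of the members was 0.091 instead of 0.067, as this scaling raised all ratios alike. MRPL1 was the 1 member past 2-fold under each alternative, 9 or 10 members had a log2 ratio of at least 0.32, 1 was as far below 0, and 51 or 52 were above 0. The shares over all genes ran from 0.357% (pseudocount 2 CPM) to 2.42% (pseudocount 0.1 CPM) at 2-fold and from 8.26% (mean of 5 CPM) to 16.3% (no filter) at 0.32 upward, so whether the members lay above or below them depended on the setting. All 264 values of 33 single genes stayed within their counting intervals. Much of this was fixed in advance, since a change of filter cannot alter the ratio of a single gene. DESeq2 and total-count scaling were also almost equal to the main scaling.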

Other observations

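Of the 105 pseudogene rows left out, 3 had a mean of at least 1 CPM, chosen here after their values were seen. MRPS31P4 had 90 counts with si-NC and 111 with si-SRSF2 (log2 ratio 0.70), and MRPS31P5 had 163 and 160 (0.41), while MRPS31 itself had a ratio of -0.18. MRPL45P2 had 84 and 80 counts (0.35), beside 0.57 for MRPL45. Reads can be shared between these copies and their parent genes, so the assignment of counts among them is uncertain. Near MRPS12, which had 4 and 1 counts, ECH1, an enzyme of fatty acid oxidation, had 582 counts with si-NC and 11 with si-SRSF2, the lowest log2 ratio of all genes tested (-4.56).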
